A study of Mus musculus with 2 samples.

Results

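The Dlk1-Dio3 locus on mouse chromosome 12 holds a large cluster of microRNAs (miRNAs), short RNAs that pair through their seed (bases 2 to 8) with target mRNAs and lower their output. Members here are the array's mouse miRNAs of ControlType 0 (spots that are not controls) whose names belong to a fixed set of 45 hairpins of this locus, either arm. The rule finds 89 of the 1881 mouse miRNAs on the array, read by 228 probes. The scanner files map the probes of 68 members to the mouse build mm9, each on chromosome 12, between 110824551 and 110981994. They list the other 21 members as unmapped, and in RefSeq (GRCm38.p6) all 45 hairpins lie on chromosome 12.

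The locus is imprinted, which means that each parental chromosome expresses a different set of its genes. Dlk1 (a Notch-like factor that holds back fat-cell and osteoblast formation), Rtl1 and Dio3 (the enzyme that inactivates thyroid hormone) are read from the paternal chromosome. The long noncoding RNAs Meg3, Rtl1 antisense, Rian and Mirg, and the miRNAs processed from these RNAs, come from the maternal chromosome. The cluster is known for high levels in embryo, placenta and brain and for low levels in most adult tissues.

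The study compared whole femurs, bone together with marrow, of female mice on a C57BL/6 background, 9 months old, after ovariectomy (OVX, removal of the ovaries and with them most estrogen) or after a sham operation. Each group was 1 RNA pool from 4 mice on 1 single-colour Agilent miRNA array. Differences between mice are therefore not measured, no comparison between the groups has a replicate check, and none was tested. "Higher" and "lower" refer to these arrays alone. The labels give no time after surgery and no genotype other than wild type.

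Of the 89 members, 3 were present in sham (3.37%) and 4 in OVX (4.49%). Present means that at least 1 probe had over 50% of its spots well above background by the scanner software's flag. Over all mouse miRNAs of the array the shares were 10.7% in sham and 15.9% in OVX, so the shares of this cluster were lower than those of the array as a whole on both arrays. miR-376b-3p, miR-494-3p and miR-370-3p were present on both arrays and miR-485-3p on the OVX array only. The remaining 85 members were present on neither. Agilent's own detection call, a looser rule, gave 4 members in sham and 5 in OVX, against 15.5% and 19.8% of all mouse miRNAs.

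The mature sequences of the 4 miRNAs present, from RefSeq (GRCm38.p6, plus strand of chromosome 12), are shown because each carries its own seed, printed in capitals, 5′ to 3′. miR-376a-3p is added as the closest relative of miR-376b-3p.
miR-376b-3p: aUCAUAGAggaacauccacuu
miR-376a-3p: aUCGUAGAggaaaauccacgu
miR-494-3p: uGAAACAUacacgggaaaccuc
miR-485-3p: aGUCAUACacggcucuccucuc
miR-370-3p: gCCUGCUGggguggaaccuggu
No other mouse miRNA in the RefSeq table has any of these 5 seeds. Among the 85 members that matched the table by name, 79 distinct seeds were found, and 6 seeds were shared by a pair of members each, such as miR-376b-5p with miR-376c-5p and miR-379-3p with miR-411-3p. Among the miRNAs of that table, the members present thus belong to no shared seed family. The table holds no entry for miR-376c-3p, miR-485-5p, miR-487b-3p and miR-539-3p, so seeds shared with these could not be found. miR-376b-3p and miR-376a-3p have 21 bases each and differ at 3 of them. Counted from the 5′ end, with the base of miR-376b-3p first, these are A4G, C13A and U20G, and only A4G lies in the seed. miR-494-3p and miR-485-3p share a run of 9 bases, cauacacgg, which starts at base 6 of miR-494-3p and at base 4 of miR-485-3p.

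All 4 members present were 3p arms, the strand from the 3′ side of the hairpin. That is 4 of the 45 members of the 3p arm and 0 of the 44 of the 5p arm. Over all mouse miRNAs, 13.5% of the 3p arms and 17.5% of the 5p arms were present on at least 1 array. In RefSeq, Mir370 lies inside Rian, and Mir494, Mir376b and Mir485 lie in the stretch of 26 hairpins that the table places between annotated genes, downstream of Rian and before Mirg. None of the 9 hairpins inside the RefSeq span of Rtl1 and none of the 8 inside that of Mirg had an arm present. Over the whole cluster, 4 of 45 hairpins (8.89%) had one, so groups of this size without any are not unusual. A fixed list of RNA groups is wider and places 34 hairpins, with 67 members, under Mirg. Of those members, 2 were present in sham and 3 in OVX: miR-376b-3p, miR-494-3p and, in OVX only, miR-485-3p. Over all 89 members the counts were 3 and 4. The 4 hairpins are not adjacent: in order along the chromosome, Mir370 is hairpin 11 of 45, Mir494 is 20, Mir376b is 27 and Mir485 is 37.

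**Figure D1:**
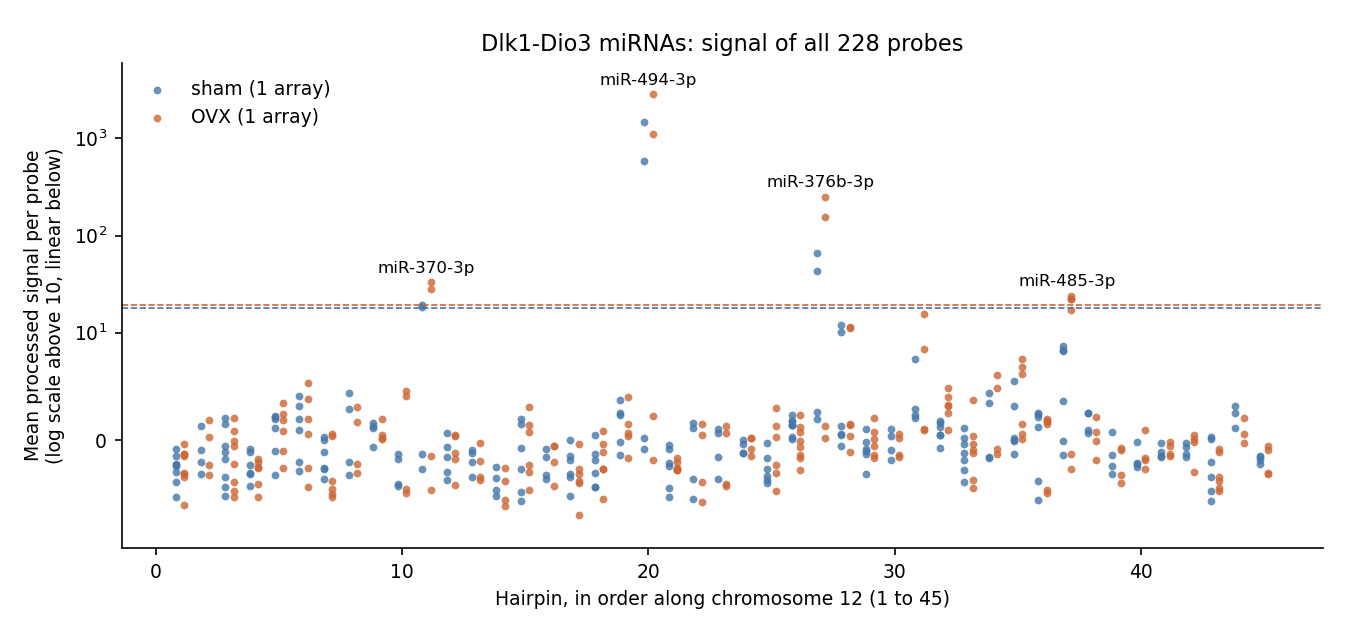
Mean processed signal (scanner brightness after background subtraction, on a scale that is logarithmic above 10 and linear below) of each of the 228 probes, with the 45 hairpins in order along chromosome 12 on the x axis; blue is the sham array, orange the OVX array, and dashed lines mark the lowest signal of a probe counted as present on each array (17.8 and 19.3). Only probes of miR-370-3p, miR-494-3p, miR-376b-3p and, on the OVX array, miR-485-3p reach these lines.

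The values below are processed intensities, brightness in arbitrary units averaged over the spots of a probe that carry no outlier flag, with the SD between spots. They describe a probe, and the brightness of different probes does not rank the abundance of their miRNAs. The OVX array was brighter as a whole: the 75th percentile of the 350 probes that passed the detection rule on each array was 2.02 times that of the sham array. Differences are therefore given on the log2 scale after each array was scaled to that percentile, OVX minus sham, and show how a miRNA moved against the rest. Their error is the spot SE, the standard error that follows from how far replicate spots scatter, and it covers measurement within the array only.

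miR-376b-3p, from a hairpin family known for editing of its primary transcripts by ADAR enzymes and reported to restrain autophagy genes, was the only member past 1.5-fold. Its first probe, the complement of bases 5 to 21 of the miRNA (aagtggatgttcctcta), gave 43.5 ± 9.63 (SD, n = 14 spots) on the sham array and 153.5 ± 14.6 (SD, n = 14 spots) on the OVX array. The second probe, 1 base longer (aagtggatgttcctctat), gave 65.8 ± 13.8 (SD, n = 15 spots) on the sham array and 250.04 ± 21.98 (SD, n = 15 spots) on the OVX array. All 14 OVX spots of the first probe and all 15 of the second lay above the highest sham spot of the same probe, and they still did after the OVX signals were divided by the 2.02-fold gap in brightness. Spots are repeats within an array. Over the 197 miRNAs measured on both arrays the median spot SE was 0.05, against an SD of 0.52 between the differences of the miRNAs. How many of all probes separate as fully is not given here. The probes of miR-376b-3p match mm9 chromosome 12 from 110961722 to 110961738.

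On the scaled log2 scale the level of miR-376b-3p was -1.27 after the sham operation and -0.41 after OVX. The difference was 0.86 (spot SE 0.06), or 1.82-fold higher. Its probes gave 0.81 and 0.91. Of the 197 miRNAs measured on both arrays, 22 were at least 1.5-fold higher (11.2%), and miR-376b-3p had the 10th highest difference. Against that background, 1 of the 3 members measured on both arrays passed 1.5-fold and 0 passed 2-fold; 2.03% of all miRNAs were at least 2-fold higher. The difference of miR-376b-3p passed 2-fold in 4 of 14 alternatives: with the 75th percentile of all probes (1.01), with Agilent's gene-level signal (1.22), with the arrays left unscaled (1.87), and after scaling to the control probes, which gave a value between those of the gene-level signal and the unscaled arrays. With normexp background correction, which adds an offset of 50 to each signal, the difference was 0.39 and no longer past 1.5-fold. The probes of miR-376b-3p have 38.9% and 41.2% GC, and over all miRNAs measured on both arrays the differences fell by 0.12 for each 10 percentage points of GC. After removal of that trend the difference was 0.72, still past 1.5-fold.

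miR-376a-3p, whose hairpin is the next one along the chromosome in RefSeq, was not well above background. Its first probe gave 12.1 ± 5.91 (SD, n = 15 spots) on the sham array and 11.5 ± 4.85 (SD, n = 15 spots) on the OVX array. The second gave 10.1 ± 5.71 (SD, n = 15 spots) on the sham array and 11.2 ± 3.66 (SD, n = 14 spots) on the OVX array. The signals of this relative were alike on both arrays, with no factor of 2.02 between them. They lay near the mean of the negative control spots plus 3 SD (10.4 in sham and 9.95 in OVX). At that level a gap in brightness between the arrays need not show. Set along mature sequences in the RefSeq table without gaps, the probes of miR-376b-3p had 2 and 3 mismatches with miR-376a-3p and at least 5 with any other mouse miRNA there, and those of miR-376a-3p had 2 each with miR-376b-3p. The table used here holds no entry for miR-376c-3p, so it was not part of this search. How far these probes also take up the relative was not tested. miR-376c-3p, miR-376c-5p, miR-376a-5p and miR-376b-5p, the other arm of the same hairpin, were present on neither array.

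miR-494-3p, reported to target regulators of mitochondria in muscle, was measured by a pair of probes. The first (gaggtttcccgtgt, the complement of bases 9 to 22) gave 1469 ± 186.8 (SD, n = 15 spots) on the sham array and 2867 ± 117.4 (SD, n = 13 spots) on the OVX array. The second (gaggtttcccgtgta) gave 581.9 ± 85.4 (SD, n = 15 spots) on the sham array and 1124 ± 127.5 (SD, n = 15 spots) on the OVX array. The raw ratios of 1.95 and 1.93 were close to the 2.02-fold gap between the arrays, and the scaled OVX spots of each probe fell within the range of its sham spots. The difference was -0.06 (spot SE 0.04), or 0.963-fold, close to the median of -0.04 over the 197 miRNAs. Its sign followed the scaling: it was 0.96 when the arrays were left unscaled and 0.58 when they were scaled to the control probes. The probes match mm9 chromosome 12 from 110953585 to 110953598. Set along mature sequences without gaps, each had at least 3 mismatches with any other mouse miRNA. miR-323-3p and miR-381-3p, both present on neither array, were among the closest. How far the probes of miR-494-3p also take up other miRNAs was not tested.

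miR-370-3p, reported to restrain osteoblast differentiation through Bmp2 and Ets1, was dim. Its first probe (accaggttccaccc, the complement of bases 9 to 22) gave 19.3 ± 4.75 (SD, n = 15 spots) on the sham array and 28.3 ± 3.07 (SD, n = 14 spots) on the OVX array. The second (accaggttccacccc) gave 18.3 ± 5.42 (SD, n = 15 spots) on the sham array and 32.9 ± 5.57 (SD, n = 15 spots) on the OVX array. On the sham array only 8 and 9 of the 15 spots of these probes were well above background; in OVX all spots were. After scaling, the spot ranges of both probes overlapped between the arrays.

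The difference of miR-370-3p was -0.32 (spot SE 0.08), or 0.804-fold, and its probes gave -0.46 and -0.17. This lies within 1.5-fold. Of the 3 members 0 were at least 1.5-fold lower, against 14.7% of all 197 miRNAs. It was above 0 with Agilent's gene-level signal (0.03), after scaling to the control probes (0.32) and when the arrays were left unscaled (0.70). When at least 75% of spots had to be well above background, it was no longer present on the sham array. The probes match mm9 chromosome 12 from 110856523 to 110856536, inside Rian by RefSeq. Set along mature sequences without gaps, each had at least 4 mismatches with any other mouse miRNA in the RefSeq table. For the first probe 16 miRNAs had 4 mismatches. Among them was miR-140-3p, present on both arrays with a difference of -0.49 (spot SE 0.06). How far the probes of miR-370-3p also take up other miRNAs was not tested.

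**Figure D2:**
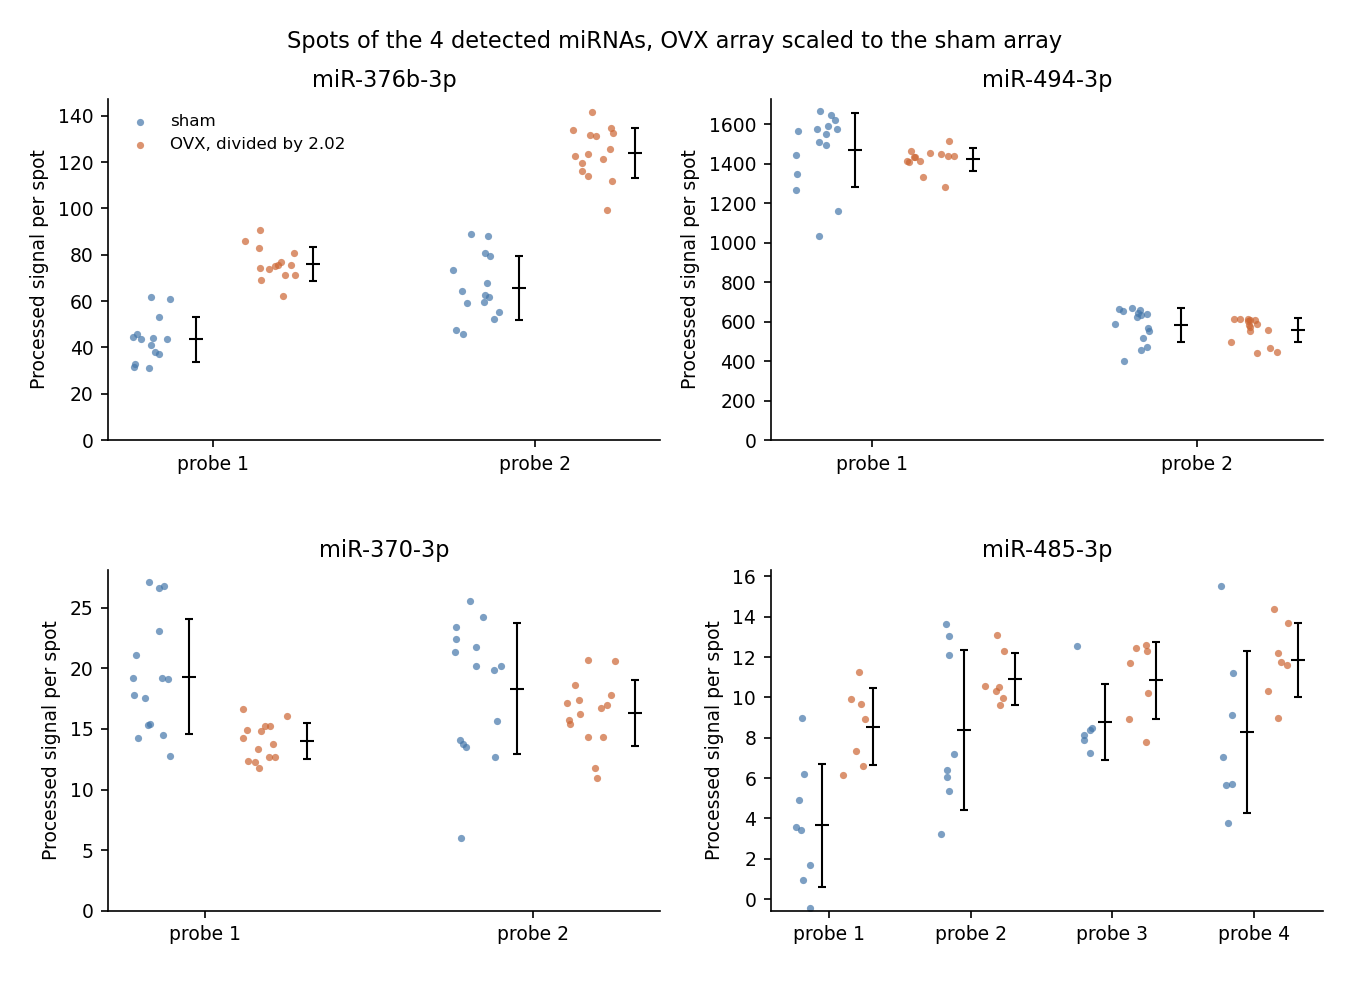
Processed signal of every spot without an outlier flag for the probes of the 4 miRNAs present, in the order of the probes in the text; blue is the sham array, orange the OVX array after division by 2.02, and bars are the mean and SD between spots. The 14 and 15 OVX spots of the miR-376b-3p probes lie above all sham spots of the same probe, and those of the other 3 miRNAs overlap with them. Spots are repeats within an array, and the share of all probes that separate as fully was not counted.

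miR-485-3p, reported to act on the mitochondrial coactivator PGC-1α, was present on the OVX array through 3 of its 4 probes. The longest of these (gagaggagagccgtgt, the complement of bases 7 to 22) gave 8.29 ± 4.03 (SD, n = 7 spots) on the sham array and 23.9 ± 3.74 (SD, n = 7 spots) on the OVX array, where 6 of the 7 spots were well above background. Over the 4 probes the means ran from 3.65 to 8.78 on the sham array and from 17.3 to 23.9 on the OVX array, and no sham spot was well above background. The scaled OVX level of -3.53 lay below -2.86, the lowest level of any probe that passed in sham, and no fold is given. Without scaling it was at least 1.27-fold higher in OVX, a bound smaller than the 2.02-fold gap in brightness between the arrays. Over all mouse miRNAs, 102 passed the detection rule in OVX alone and 5 in sham alone, so a miRNA seen just on the brighter array was common. The probes match mm9 chromosome 12 from 110973163 to 110973177. Set along mature sequences without gaps, they had 2 to 4 mismatches with their closest other mouse miRNAs, miR-207 among these for each probe. miR-207 was present on both arrays, with a difference of 0.81 (spot SE 0.09). How far the probes of miR-485-3p also take up miR-207 was not tested.

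**Figure D3:**
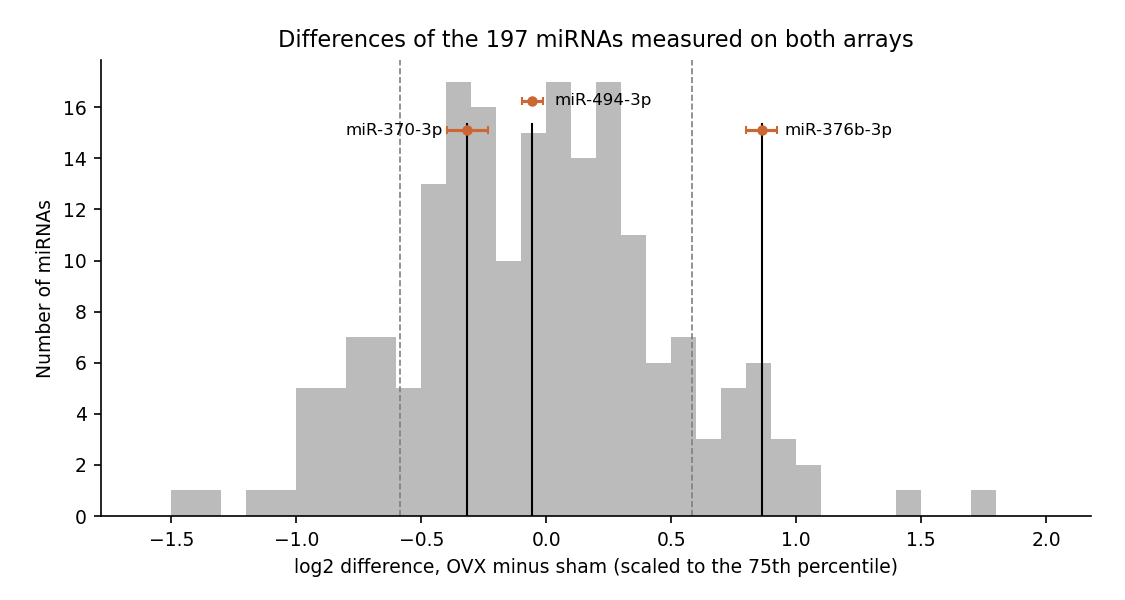
Histogram of the log2 difference, OVX minus sham, of the 197 miRNAs measured on both arrays; black lines and orange points with spot SE mark the 3 members, and dashed lines mark 1.5-fold in either direction. miR-376b-3p (0.86) lies beyond the upper line, and miR-494-3p (-0.06) and miR-370-3p (-0.32) lie between the lines.

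The 3 members measured on both arrays did not share a direction, and their median difference, -0.06, is that of miR-494-3p. The median over all 197 miRNAs was -0.04, with quartiles of -0.36 and 0.28. Taken relative to the median of all miRNAs under the same setting, the difference of miR-376b-3p ran from 0.65 to 1.03 over 14 alternatives, that of miR-494-3p from -0.05 to 0.42 over 14, and that of miR-370-3p from -0.32 to -0.12 over 13. The range of miR-376b-3p lay above those of the others.

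**Figure D4:**
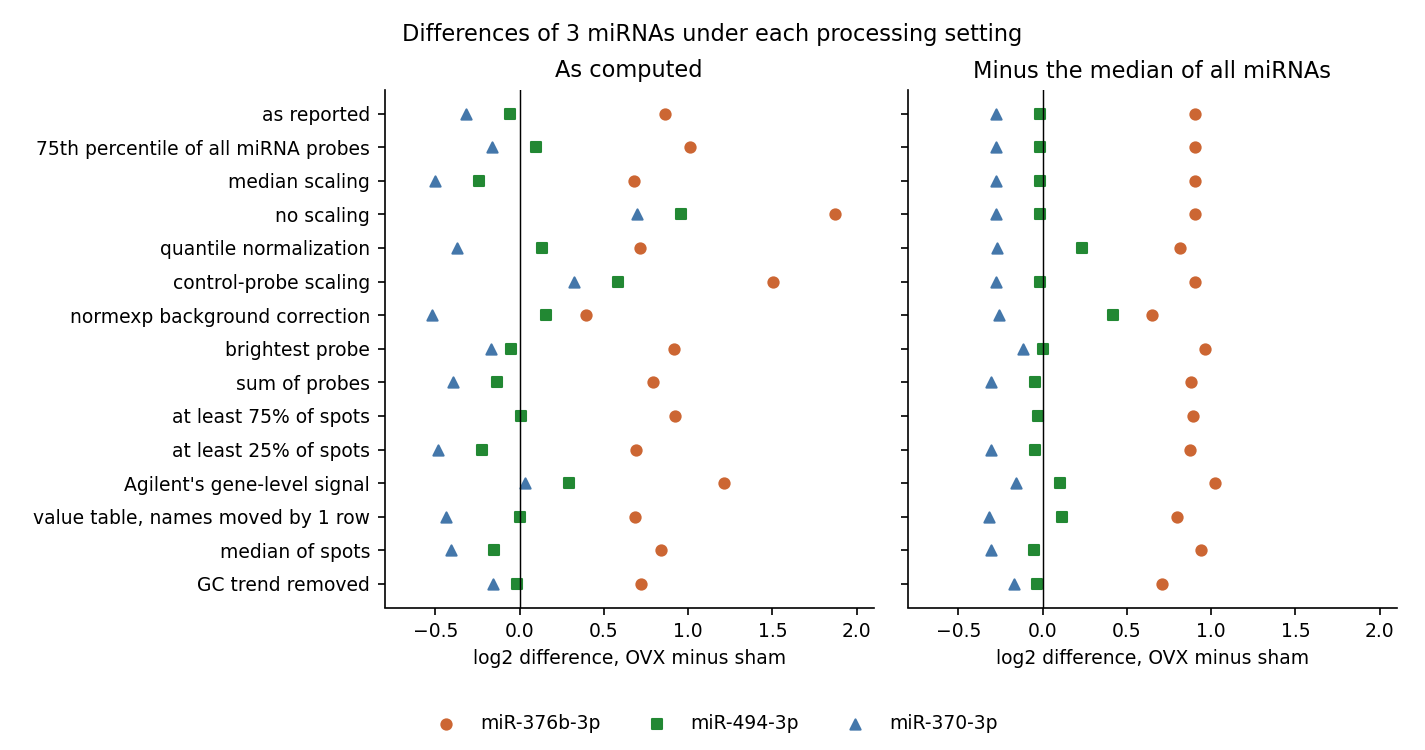
Log2 difference, OVX minus sham, of miR-376b-3p (circles), miR-494-3p (squares) and miR-370-3p (triangles) under each processing setting, as computed (left) and after subtraction of the median of all miRNAs (right). miR-376b-3p is above 0 throughout, and the sign of the others moves with the scaling on the left. On the right, settings that only rescale a whole array by a constant repeat the reported value.

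The 85 members present on neither array gave low signals. Over their 218 probes the mean signal ran from -5.65 to 12.1 on the sham array, with a median of -1.03, and from -6.90 to 15.3 on the OVX array, with a median of -0.82. The negative control spots gave 1.93 ± 2.81 (SD, n = 982 spots) on the sham array and 1.36 ± 2.86 (SD, n = 978 spots) on the OVX array. In sham, 5 of the 2478 spots of these members were well above background, and in OVX 3 of 2462. Probe means above the negative-control mean plus 3 SD numbered 1 in sham (0.459% of the 218) and 3 in OVX (1.38%), and belonged to miR-376a-3p and miR-487b-3p. Among probes of the other 1492 miRNAs present on neither array, 1.36% and 4.83% were above it. The raw mean was higher on the OVX array for 43 of the 85 (50.6%) and for 60.1% of the others. A miRNA that did not pass the detection rule has only a bound here, and expression below it is not excluded.

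Those 85 include members with known roles. Both arms of miR-127, miR-136, miR-431, miR-433, miR-434, miR-337, miR-540, miR-665 and miR-673, whose hairpins lie in the span of Rtl1, were among them. Among these, miR-127, miR-136, miR-431 and miR-433 are known to be antisense to Rtl1 and to guide cleavage of its mRNA. So were miR-370-5p and both arms of miR-341 from Rian, and both arms of miR-154, miR-496a, miR-377, miR-541, miR-409, miR-412, miR-369 and miR-410 from Mirg. Between Rian and Mirg, both arms of miR-379, miR-411, miR-380, miR-1197, miR-323, miR-758, miR-329, miR-679, miR-1193, miR-543, miR-495, miR-667, miR-376a, miR-376c, miR-300, miR-381, miR-487b, miR-539, miR-544, miR-382, miR-134 (a regulator of Limk1 in dendrites) and miR-668 were not well above background. The same held for miR-299a-3p, the single arm of its hairpin on the array, and for miR-376b-5p, miR-485-5p and miR-494-5p. After miR-376a-3p, the highest mean signals among the 85, averaged over probes, were those of miR-487b-3p (5.20 in sham and 11.9 in OVX), miR-382-3p (3.89 and 5.45), miR-134-5p (1.84 and 5.53) and miR-434-3p (3.65 and 2.42).

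The probes of the 4 members present had 13 to 18 bases and 38.9% to 69.2% GC, with a median of 63.4%. Those of the 85 others had 10 to 22 bases and up to 81.8% GC, with a median of 50%, and those of all mouse miRNAs a median of 53.3%. The lengths and GC content of the 4 lie inside the ranges of the 85, and the part of probe composition in detection was not tested.

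Further miRNAs of imprinted loci were taken from fixed lists. Of 23 other miRNAs listed for the Dlk1-Dio3 locus, outside the name rule, miR-3072-5p alone was present on both arrays, with a difference of -0.20 (spot SE 0.05). Of 10 from other imprinted loci, miR-483-5p and miR-483-3p, which lie in the growth factor gene Igf2, were present on both arrays and differed by -0.0037 (spot SE 0.06) and 0.37 (spot SE 0.03). None of these 3 passed 1.5-fold. No other miRNA of these lists was present on either array, and the shares over all mouse miRNAs were 10.7% in sham and 15.9% in OVX.

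Markers of the tissue were checked in the same way. The 3 red-cell miRNAs and the granulocyte miR-223-3p were present on both arrays, as were both arms of the cartilage miR-140. Beside miR-376b-3p, the listed red-cell miRNAs had differences of 0.28 (miR-451a), 0.85 (miR-144-3p) and 0.97 (miR-144-5p), and miR-223-3p was at -0.63. The red-cell miRNAs did not share a direction: miR-486a-5p, a red-cell miRNA outside the list, was at -0.71 (spot SE 0.03). Of 4 skeletal muscle miRNAs, miR-133a-3p and miR-133b-3p were present on the sham array only. Of 5 stromal miRNAs 1 (miR-199a-3p), and of 5 neuronal miRNAs 1 (miR-128-3p), was present, each on the OVX array only. Over all 1881 mouse miRNAs, 5 (0.266%) were present on the sham array only and 102 (5.42%) on the OVX array only. In pooled whole bone, fewer cells of a type and less of a miRNA per cell cannot be told apart, and the part of these cell types in the difference of miR-376b-3p was not tested.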

How the data were processed

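The sham and OVX groups, each with 1 pooled sample and 1 array, were compared. The authors used Agilent Feature Extraction to make the scanner files (10.7.1.1 per the file headers, 11.0.1.1 per the submitters' processing notes, build mm9 per the file headers). These hold an intensity for each spot. The processed intensity was corrected by the authors' software for background and for a spatial trend, per the file headers, with no normalization between arrays. The authors' deposited value table holds log2 values; how they were normalized is not given in the sources used here. The column medians, -3.18 (sham) and -3.32 (OVX), equal their lowest values. Its names go with the scanner values only when moved by 1 row (Spearman 0.987 and 0.996 with the probe totals of detected miRNAs, against -0.02 and 0.02 as printed), so it served as an alternative only.

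Control spots and those flagged as outliers (2.75% and 2.90% of miRNA spots) were dropped; no spot was saturated. Probe means over spots were taken to log2 and scaled, and the probes of a miRNA that were well above background on both arrays were averaged. The number of arrays limits the precision. No test was made; 1.5-fold was the size rule. All members present on an array were named with values, and of the rest the 5 with the highest mean signal. Members and lists were chosen with earlier results of these data known. Alternatives were other scalings, normexp (limma 3.58.1), other summaries and filters, GC correction and the value table. The scaling and averaging were run on simulated arrays with known changes and a uniform gap in brightness. Detection was taken from the real sham array there, so the detection rule was not tested. Sequences and gene positions come from RefSeq (GRCm38.p6), where 85 of 89 members matched a mature sequence. Analyses used Python 3.11.15 and R 4.3.3.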

Additional observations from a re-analysis of the deposited data

Results flagged for a closer look

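Agilent's gene-level signals served above only as an alternative setting. Among members that Agilent called detected, these signals departed from the totals of their own probes by more than 0.05 on the log2 scale for a pair of members; members not called detected stand at 0.1 whatever their probes gave. For miR-487b-3p in OVX the gene-level signal was 147 against a probe total of 6.57, and it was called detected there, while 0 of 15 spots of its first probe and 2 of 15 of its second were well above background. In the authors' deposited table, with its names moved by 1 row, miR-487b-3p stands at -0.62 in OVX and at the floor in sham. For miR-376a-3p on the sham array the gene-level signal was 2.56 against a probe total of 4.71, and it was called detected on that array only, although its probe signals were alike on both.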

How the results depend on the processing

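With 1 array per group, no setting carries a replicate error. No paired analysis was possible because each group is 1 sample. miR-376b-3p stayed above 0 under all 14 alternatives (0.39 to 1.87) and past 1.5-fold under 13, the exception being normexp. The count of members at least 1.5-fold higher was 1 except without scaling (3), with normexp (0) and at a threshold of 2-fold (0); the count at least 1.5-fold lower was 0 throughout. The median difference over the members, that of miR-494-3p in most settings, was 0.10 with the 75th percentile of all probes, -0.24 with median scaling, 0.96 without scaling, 0.13 with quantile normalization, 0.58 with control-probe scaling, 0.16 with normexp, 0.29 with Agilent's gene-level signal and -0.15 with the median of spots. It was 0.47 when at least 75% of spots had to be well above background, which leaves 2 members, and -0.22 at 25%. miR-370-3p was above 0 in 3 of 13 alternatives. Members present ranged from 2 to 4 in sham and from 3 to 5 in OVX over the other detection rules. No probe with a mean signal under 17.8 in sham or 19.3 in OVX passed the detection rule.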
